A study of Mus musculus with 4 samples.

Results

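Complement is a cascade of plasma proteins that tags particles for uptake, calls in leukocytes and can lyse membranes. Macrophages make part of it themselves and carry receptors for its products. The 8 genes described here are the macrophage-made components C1qa, C1qb, C1qc, C3, Cfp and Cfb and the receptors C3ar1 and C5ar1. They were chosen by name, out of 55536 annotated genes in the series. All 8 were found in the tables and passed the minimum mean count of 10 that 14041 genes passed.

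C1q is the recognition molecule of the classical pathway, which binds antibody complexes and dying cells, and it is assembled from an A, a B and a C chain encoded by separate genes. C3 is the protein on which all activation pathways converge. Cfb, factor B, supplies the protease of the alternative pathway, and Cfp, properdin, stabilises the enzyme complex that factor B forms with C3. Activation releases the small fragments C3a and C5a, which C3ar1 and C5ar1 bind as G protein-coupled receptors on myeloid cells.

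The cells were primary macrophages grown from the bone marrow of C57BL/6J mice, exposed to 100 ng/ml lipid A for 15 minutes. Lipid A is the part of bacterial lipopolysaccharide that Toll-like receptor 4 recognises. RNA was taken from the cytosolic fraction, ribosomal RNA was removed, and 4 biological replicates were sequenced, each starting from 1 µg of RNA. The 4 libraries form 1 group, and unstimulated cells and other fractions were not analysed here, so the values are levels in stimulated cells and no response to lipid A can be read from them. All 4 labels carry the same donor record and name no separate animals or cultures. The p-values here therefore speak for these 4 libraries, whose differences may be technical. Sex and age are given as not collected.

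The libraries held between 30088678 expected counts on annotated genes, in replicate 1, and 47961117, in replicate 2. In CPM, a count scaled by its library's total, a count of 0 would allow a level up to 0.0997 in replicate 1 and 0.0626 in replicate 2, from counting error only. All 8 macrophage markers examined, among them Lyz2, Cd68, Csf1r, Adgre1, Cd14, Fcgr1 and Mertk, were detected at a mean of at least 1 TPM, a level corrected for transcript length. None of 4 B cell, 4 T cell, 6 stromal and 6 hepatocyte markers reached that mean, and the hepatocyte markers had no count in any library. Of 8 neutrophil markers 3 reached it, with a summed level between 20.9 TPM in replicate 1 and 40.7 TPM in replicate 3. The signal recognition particle RNA 7SL took between 57.1% and 63.3% of all TPM, and every TPM below is a share of a total that includes it. Replicate 1, the shallowest library, stood apart, with 2031 genes higher and 1065 lower than in the other 3, while 0 genes were called in each of the others (edgeR's quasi-likelihood test, adjusted p under 0.05).

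The 3 C1q chain genes lie side by side on chromosome 4 (mm10, GENCODE M21), all on the minus strand. C1qb spans chr4:136880129-136886187, C1qc spans chr4:136889804-136893065 and C1qa spans chr4:136895917-136898803, with gaps of 3616 and 2851 bases between them. Each chain carries a collagen-like stem of repeated triplets that each begin with glycine. The longest unbroken run of such glycine codons in each coding sequence is shown, 5′ to 3′ from the M21 transcripts, with the glycine codons in capitals to show how alike the chains are in the part they share. The run has 16 glycine triplets in C1qa-201 (chr4:136896565-136896708, 1 exon), 29 in C1qb-201 (chr4:136880700-136882217, over 2 exons and the intron between them) and 16 in C1qc-201 (chr4:136890439-136890582, 1 exon).
C1qa: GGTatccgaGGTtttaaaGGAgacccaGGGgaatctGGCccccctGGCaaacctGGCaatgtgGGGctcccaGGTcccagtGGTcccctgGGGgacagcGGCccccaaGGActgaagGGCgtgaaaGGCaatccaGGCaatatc
C1qb: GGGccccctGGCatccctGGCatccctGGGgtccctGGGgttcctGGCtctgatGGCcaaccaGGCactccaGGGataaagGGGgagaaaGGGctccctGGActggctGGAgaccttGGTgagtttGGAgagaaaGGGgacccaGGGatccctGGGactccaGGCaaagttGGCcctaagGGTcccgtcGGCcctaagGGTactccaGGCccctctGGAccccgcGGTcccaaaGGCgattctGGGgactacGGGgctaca
C1qc: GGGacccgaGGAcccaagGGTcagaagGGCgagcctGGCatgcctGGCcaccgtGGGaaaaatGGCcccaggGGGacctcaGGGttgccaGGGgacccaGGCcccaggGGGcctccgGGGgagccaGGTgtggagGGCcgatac
The repeat is common to the chains but the letters differ. None of the 1010, 1058 and 1173 words of 31 bases in the C1qa-201, C1qb-201 and C1qc-201 transcripts occurred in a transcript of any other gene, on either strand, so a read of that length could be assigned to its chain.

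C1qb and C1qc were the most abundant of the 8 genes, and C1qa was far below both. C1qb had 859.6, 688, 719.5 and 991 TPM in replicates 1, 2, 3 and 4, a mean of 815 ± 139 TPM (SD, n = 4), which placed it at rank 35 among all annotated genes. C1qc had 633, 502, 527 and 721 TPM in the same libraries, a mean of 596 ± 101 TPM and rank 48. C1qa had 156, 50.03, 61.8 and 83.2 TPM, a mean of 87.7 ± 47.5 TPM and rank 520. Both C1qb and C1qc exceeded C1qa in every library, and the ranges of C1qa and of either other chain did not overlap.

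The B and C chains kept one ratio to each other, while their ratio to the A chain did not. C1qb stood over C1qc by a TPM ratio of 1.36 in replicate 1 and 1.37 in each of the others, a mean of 1.37 ± 0.00727 (SD, n = 4). C1qb stood over C1qa by a ratio of 5.51 in replicate 1, 13.8 in replicate 2, 11.6 in replicate 3 and 11.9 in replicate 4. The ratio of C1qc to C1qa was 4.06, 10.03, 8.52 and 8.67 in the same order. Replicate 1 therefore lay apart from the other 3 libraries in both ratios that involve C1qa, and not in the one that does not.

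**Figure D1:**
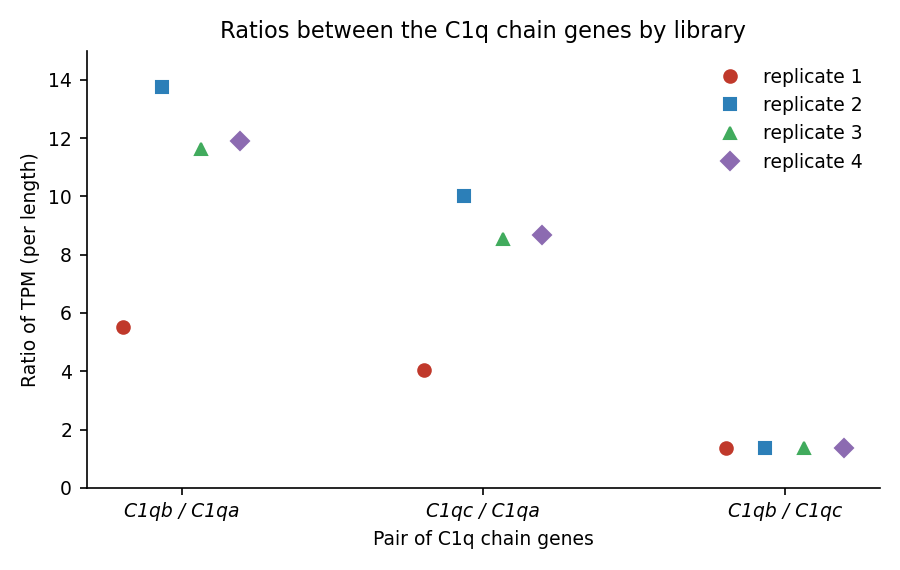
Ratios of TPM between the C1q chain genes (vertical axis, linear) for the 3 pairs of chains (horizontal axis), with 1 point per library. C1qb over C1qc is nearly the same in all 4 libraries, at 1.36 to 1.37, and both ratios to C1qa are lowest in replicate 1, at 5.51 and 4.06.

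The mean difference on the log2(TPM + 1) scale was 3.32 ± 0.59 for C1qb minus C1qa, 2.87 ± 0.58 for C1qc minus C1qa and 0.45 ± 0.01 for C1qb minus C1qc (SD, n = 4). Without replicate 1 they were 3.61 ± 0.13, 3.16 ± 0.12 and 0.45 ± 0.01. All 3 had the same sign in 4 of 4 libraries, with p = 0.125 in the exact two-sided sign-flip permutation test, the smallest p that 4 libraries allow. Counts gave the same picture per library. C1qa took 8.53% of the counts on the 3 chains in replicate 1 (95% Wilson interval 8.33% to 8.74%), 3.63% in replicate 2 (3.52% to 3.74%), 4.26% in replicate 3 (4.13% to 4.39%) and 4.18% in replicate 4 (4.06% to 4.30%). The replicate 1 interval lay above the other 3, from counting error only. C1qb took 54.5% of the counts on the B and C chains in replicate 1 (54.1% to 54.9%), and 54.8%, 54.7% and 54.9% in replicates 2, 3 and 4.

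C1qb and C1qc kept their ratio across libraries, so their promoter windows are shown. The windows run from 250 bases before to 50 after the start site, 5′ to 3′, from RefSeq (GRCm38.p6). Of the 8 genes 6 matched the promoter table: C1qb, C1qc, C3, Cfp, C3ar1 and C5ar1. C1qa and Cfb did not. The C1qb window is chr4:136886151-136886450 and the C1qc window chr4:136892865-136893164, both on the minus strand, and capitals mark matches to the motif letters searched.
C1qb: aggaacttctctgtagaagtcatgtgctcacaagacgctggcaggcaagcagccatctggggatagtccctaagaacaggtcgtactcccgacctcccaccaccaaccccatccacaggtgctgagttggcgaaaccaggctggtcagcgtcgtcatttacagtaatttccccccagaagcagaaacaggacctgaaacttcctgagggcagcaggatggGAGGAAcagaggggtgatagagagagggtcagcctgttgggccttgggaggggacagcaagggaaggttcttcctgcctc
C1qc: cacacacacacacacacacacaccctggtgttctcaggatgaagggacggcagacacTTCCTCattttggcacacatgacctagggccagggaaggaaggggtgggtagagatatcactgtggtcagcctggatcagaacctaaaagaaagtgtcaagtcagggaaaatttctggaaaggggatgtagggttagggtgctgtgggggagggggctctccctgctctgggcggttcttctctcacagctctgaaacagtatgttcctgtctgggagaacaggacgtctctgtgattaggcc
Letters of 5 motifs were searched on both strands: GAGGAA for PU.1, the myeloid lineage factor, TGANTCA for AP-1, GGGANTTTC for NF-kB, GAAANNGAA for IRF and TATAAA for the TATA box. The C1qb window held the PU.1 letters at position -30 from its RefSeq start, and the C1qc window held them on the opposite strand at position -193. C1qc-201 itself starts at chr4:136893065, inside the window and upstream of the RefSeq start of C1qc. The match is therefore nearer to the start of C1qc-201 than -193 says. The PU.1 letters occur in 28.3% of all 32851 windows of that length, and none of the other motifs matched in the C1qb or the C1qc window. The shares of windows with the other letters were 7.81% for AP-1, 1.11% for NF-kB, 8.56% for IRF and 13.6% for the TATA box. The Cfp window held the PU.1 letters at 2 places on the opposite strand, positions 7 and 23, both after the start site. The C3ar1 window held the AP-1 letters, which read the same on both strands, at position -22, and TATAAA at position -235. The C3 window held TATAAA at position 15, also after the start site. These matches are letters only, with no measure of binding.

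The alternative pathway components fell at opposite ends of the range, with Cfp high and C3 and Cfb low. Cfp lies at chrX:20925454-20931555 and had 265, 198, 207 and 256 TPM in replicates 1 to 4, a mean of 232 ± 33.8 TPM and rank 177. Its lowest and highest library differed by a factor of 1.34, the smallest spread of the 8 genes in TPM of the gene tables. C3 lies at chr17:57203970-57228136 and had 2.69, 4.76, 4.73 and 4.22 TPM, a mean of 4.10 ± 0.972 TPM and rank 7250. Replicate 1 was lowest for C3 in the gene tables. Cfb lies at chr17:34856374-34862518 and had 1.18, 1.29, 2.93 and 0.69 TPM, a mean of 1.52 ± 0.974 TPM and rank 9629. Replicate 3 was highest and replicate 4 lowest for Cfb, 4.25 times apart, in these gene tables. By TPM in the target tables Cfb was highest in replicate 1, at 1.63 TPM, and C3 lowest in replicate 4, at 1.19 TPM. That TPM was highest in replicate 1 for every member but C3. With target counts scaled between libraries, Cfb had a log2 fold change over the others of -0.28 in replicate 1 and 1.28 in replicate 3. C3 had -0.79 in replicate 1 and -0.36 in replicate 4, so on that scale the extremes were those of the gene tables for Cfb high and C3 low. All 3 genes are on the minus strand.

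C3 had 633, 1808, 1776 and 1367 expected counts in replicates 1 to 4, and Cfb had 91, 210, 408 and 60, so C3 and Cfb were detected in every library. Part of Cfb cannot be counted apart from a neighbour. The readthrough gene Gm20547 (chr17:34856412-34882042, same strand) spans Cfb, and 92.4% of the words of 31 bases in Cfb-206, the Cfb transcript with the largest share in the transcript tables, also occur in it. The deposited tables give Gm20547 a count of 0 in all 4 libraries. The small RNA genes Mir6972 inside Cfb and Mir6978 inside C3 were at 0 too.

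The receptors C3ar1 and C5ar1 were both well above C3, and in the gene tables only C3ar1 of these 2 receptors was even across libraries. C3ar1 lies at chr6:122847138-122856161 and had 255.9, 166.5, 182 and 220.4 TPM in replicates 1 to 4, a mean of 206 ± 40.2 TPM and rank 202. In the target tables C3ar1 was less even, at 134 TPM in replicate 1, against 57.6, 49.6 and 60.4 TPM in replicates 2, 3 and 4. Cfp was also highest there, at 139 TPM against 67.3, 55.8 and 70.1 TPM, so this was not particular to C3ar1. Scaled between libraries, the target counts gave C3ar1 a log2 fold change of 0.33 ± 0.23 (SE) in replicate 1 over the others. C5ar1 lies at chr7:16246743-16259540 and had 288 TPM in replicate 1, against 61.9, 71.5 and 87.5 TPM in replicates 2, 3 and 4. Its mean was 127 ± 108 TPM at rank 355, and 73.6 ± 12.9 TPM without replicate 1 (SD, n = 3), a drop of more than 1.5 times. Replicate 1 was the highest library for both receptors, but for C5ar1 the gap to the next library was 0.887 of the whole range. Both genes are on the minus strand.

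**Figure D2:**
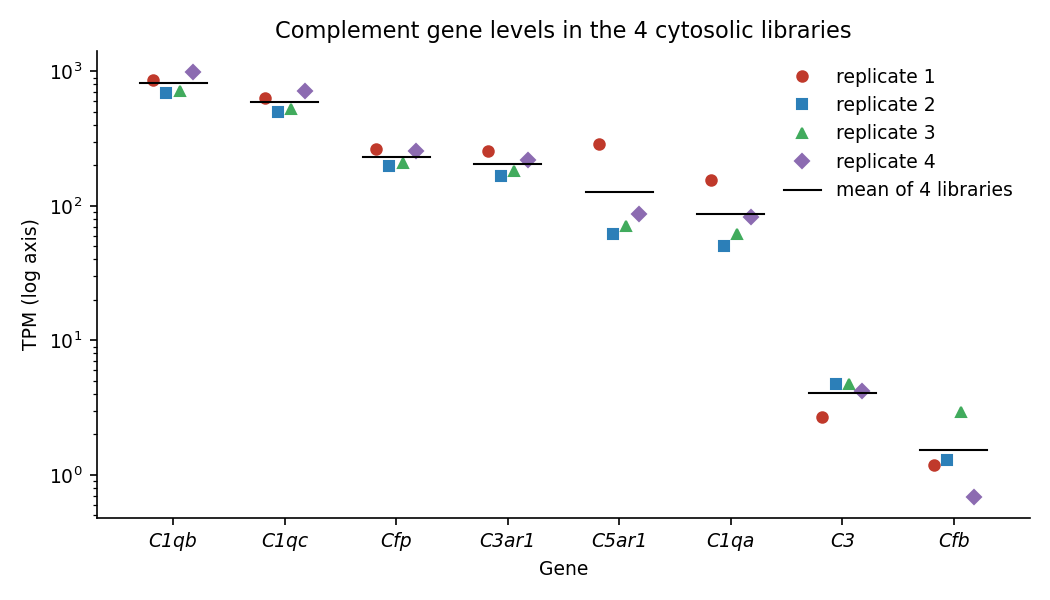
Level in TPM (vertical axis, logarithmic) of the 8 complement genes (horizontal axis, ordered by mean), with 1 point per library and a bar at the mean of the 4. C1qb is highest at a mean of 815 TPM and Cfb lowest at 1.52 TPM, and C5ar1 and C1qa have replicate 1 far above the other libraries.

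In order of mean level the genes ran C1qb, C1qc, Cfp, C3ar1, C5ar1, C1qa, C3 and Cfb. The pairs tested follow this order, which comes from the same 4 libraries, so agreement in sign is partly built in. Of the 7 neighbouring pairs, 6 had the same sign in 4 of 4 libraries, each with p = 0.125 and an adjusted p of 0.146 over the 7 pairs in the exact two-sided sign-flip permutation test, which can give nothing smaller than 0.125. The exception was C3ar1 over C5ar1, where the difference in log2(TPM + 1) was -0.17 in replicate 1, against 1.41, 1.33 and 1.32 in replicates 2, 3 and 4 (mean 0.98 ± 0.76 SD, n = 4, exact p = 0.25). C5ar1 was the higher receptor in replicate 1 and C3ar1 in the others, and without replicate 1 the difference was 1.36 ± 0.05 (SD, n = 3). Cfp exceeded C3ar1 by only 0.18 ± 0.09 and C5ar1 exceeded C1qa by 0.37 ± 0.36, a difference about the size of its spread. The largest step was between C1qa and C3, at 4.01 ± 1.00. C3 exceeded Cfb by 1.07 ± 0.50 in the gene tables and by 0.29 ± 0.31 in the target tables, where Cfb was above C3 in replicate 1, at 1.63 against 1.43 TPM.

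Counts scaled by total library size (here CPM with TMM factors, a scaling between libraries) put the libraries in another order from TPM. The 7SL share of TPM was 57.6%, 63.3%, 60.9% and 57.1% in replicates 1 to 4, and its part in that was not tested. C1qb was 1106 CPM in replicate 1, against 1219, 1285 and 1198 CPM in replicates 2, 3 and 4. Its TPM was highest in replicate 4, also without the 7SL genes, at 2027, 1878, 1842 and 2309 TPM in replicates 1 to 4. C1qa was 189 CPM in replicate 1, against 83.7, 104 and 95.1 CPM in the others. C5ar1 was 910.4 CPM in replicate 1, against 244, 303 and 216 CPM. On both scales C1qa and C5ar1 were highest in replicate 1, with no overlap with the other 3 libraries.

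By their spread between libraries, 4 of the 8 genes were even and 4 were not. The SD of log2 CPM over the 4 libraries was 0.08 for C1qc, 0.09 for C1qb, 0.12 for Cfp and 0.15 for C3ar1, and it was 0.52 for C1qa, 0.55 for C3, 0.95 for C5ar1 and 1.28 for Cfb. The median over all 14041 genes tested was 0.25, and 89.6% of them had a larger SD than C1qc. A larger SD than that of Cfb was found in 5.33% of genes, and a larger one than that of C5ar1 in 10.5%. The libraries differed by more than Poisson counting allows for 8 of the 8 genes, as they did for 82.8% of all genes tested, so that count says nothing particular about complement genes.

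**Figure D3:**
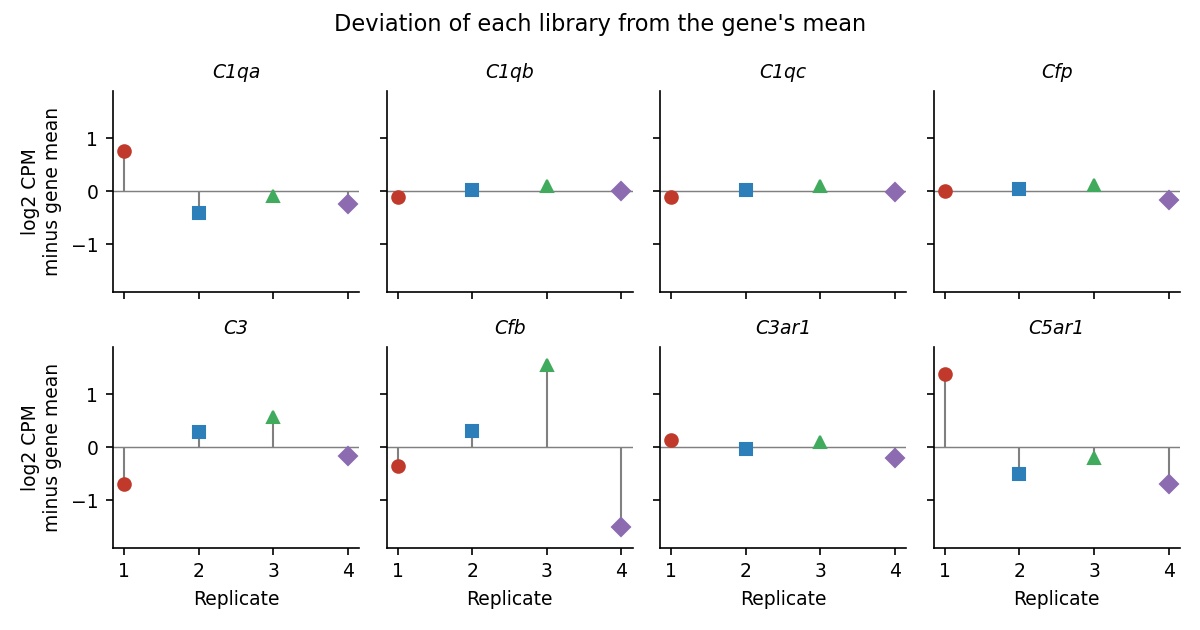
Log2 CPM of each gene minus its own mean over the 4 libraries (vertical axis, the same in every panel) by replicate (horizontal axis). C1qb, C1qc, Cfp and C3ar1 stay close to 0, C1qa and C5ar1 are high in replicate 1, C3 is low there, and Cfb runs from -1.51 in replicate 4 to 1.56 in replicate 3.

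With 1 group, each library was set against the other 3 in turn. For replicates 2, 3 and 4 the reference includes replicate 1, which stood apart. The standard error for C5ar1 was 0.92, 1.00 and 0.90 in those comparisons, against 0.19 for replicate 1. For Cfb it was 1.21, 0.70 and 0.95, against 1.14. An absence of calls there does not show that replicates 2, 3 and 4 are alike. In replicate 1, 2 of the 8 genes were higher and 0 lower at an adjusted p under 0.05 (edgeR's quasi-likelihood test, Benjamini-Hochberg over all genes), where 14.5% of all genes tested were higher and 7.58% lower. The members' median log2 fold change was -0.066, beside -0.0046 over all genes. C5ar1 rose by a log2 fold change of 1.84 ± 0.19 (SE, adjusted p = 0.00565 in edgeR). C1qa rose by 1.00 ± 0.13 (adjusted p = 0.00914 in edgeR). Over all alternative settings the C5ar1 value stayed between 1.66 and 2.01 and the C1qa value between 0.93 and 1.16, each past the threshold. In bulk RNA, fewer or more cells of a kind and less or more RNA per cell cannot be told apart.

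The other members did not pass the threshold in replicate 1. C3 had a log2 fold change of -0.95 ± 0.30 there (adjusted p = 0.0821 in edgeR), and it passed with DESeq2 (adjusted p = 0.00346), without the low-count filter (0.0215) and without replicate 4 (0.00880), which makes 3 members called in place of 2. Cfb had -0.96 ± 1.14 (adjusted p = 0.582), C3ar1 0.19 ± 0.16 (0.452) and Cfp 0.01 ± 0.15 (0.975), all in edgeR. C1qb had -0.16 ± 0.13 (adjusted p = 0.434 in edgeR) and C1qc -0.14 ± 0.13 (0.478).

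In replicates 2, 3 and 4 set against the others, 0 of the 8 genes were called, and 0% of all 14041 genes by edgeR. At an unadjusted p under 0.05 edgeR counted 277, 135 and 104 genes in those comparisons, of which 0, 1 and 0 were members, and DESeq2 called 0 members in each. The member was Cfb in replicate 3, with a log2 fold change of 1.91 ± 0.70 (unadjusted p = 0.0484, adjusted p = 1.00 in edgeR). Cfb was 10.9 CPM in replicate 3, against 2.85, 4.55 and 1.25 CPM in replicates 1, 2 and 4. In replicate 4 Cfb had a log2 fold change of -2.28 ± 0.95 (adjusted p = 0.991 in edgeR).

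Summed stromal and neutrophil markers were highest in replicate 3, where Cfb was highest in the gene tables, though not by TPM in the target tables. The 4 T cell markers, at 5, 10, 6 and 9 counts in replicates 1 to 4, were not highest there. The 6 stromal markers, Col1a1, Col1a2, Col3a1, Pdgfra, Dcn and Lum, summed to 450 counts in replicate 3, against 13, 26 and 9 counts in replicates 1, 2 and 4, and Pdgfra, Dcn and Lum had 0 counts in replicates 1, 2 and 4. The 8 neutrophil markers summed to 40.7 TPM in replicate 3, against 20.9, 26.8 and 26.0 TPM. Their part in the Cfb level was not tested. For C5ar1, also a neutrophil receptor, replicate 1 held the highest level and the lowest neutrophil marker sum, and Mertk, a macrophage receptor for dying cells, was lower there (log2 fold change -0.81 ± 0.15, adjusted p = 0.0234 in edgeR). Their part in the C5ar1 level was not tested.

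**Figure D4:**
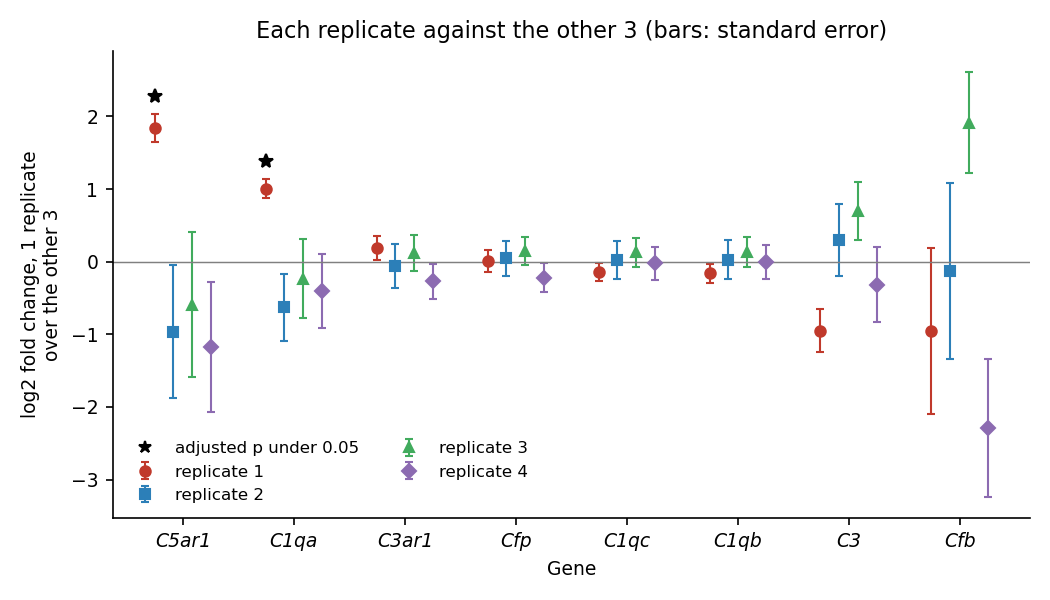
Log2 fold change of 1 replicate over the other 3 (vertical axis, bars are standard errors) for each gene (horizontal axis), with stars at an adjusted p under 0.05 in edgeR. Only C5ar1, at 1.84, and C1qa, at 1.00, carry a star, both in replicate 1.

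C1qa, C1qb and C3ar1 have 1 annotated transcript each, so their shares of 100% in every library were fixed by the annotation. Of the members with several annotated transcripts, C1qc, Cfp and C3 were read mostly as 1, and C5ar1 and Cfb were not. C1qc-201 held 99.7% ± 0.195 of its gene and Cfp-201 98.4% ± 0.572 (SD, n = 4). C3-201 held 100% in replicates 1, 3 and 4 and 80.9% in replicate 2, where the short C3-202 took 15.1% and C3-203 took 4.05%. Cfb was split over several of its 8 annotated transcripts, though Cfb-207 was at 0% in every library in both kinds of table. Cfb-206 held the most in the transcript tables, at 40.2% ± 5.68, against 19.0% ± 18.5 for Cfb-205. In the target tables Cfb-205 held the most, at 25.1% ± 10.4, against 22.9% ± 5.35 for Cfb-206.

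C5ar1-201 held 80.4%, 64.8%, 75.8% and 50.2% of C5ar1 in replicates 1 to 4 in the transcript tables, a mean of 67.8% ± 13.4. In the target tables it held 54.4%, 17.7%, 26.9% and 18.2%, a mean of 29.3% ± 17.2, and C5ar1-202 held the most at 38.4% ± 11.3. The tables did not give the same leading transcript, but replicate 1 had the highest C5ar1-201 share in both. The C5ar1-201 level was 231 TPM in replicate 1, against 40.1, 54.1 and 43.9 TPM in the others. C5ar1-201 and C5ar1-203 start 202 bases upstream of C5ar1-202, whose start is that of the RefSeq window. Both starts lie in the window chr7:16259289-16259588 (minus strand), which is shown because C5ar1-202, and so the downstream start, held 16.2% of C5ar1 in the transcript tables and 38.4% in the target tables. The upstream start held the larger part in both.
C5ar1: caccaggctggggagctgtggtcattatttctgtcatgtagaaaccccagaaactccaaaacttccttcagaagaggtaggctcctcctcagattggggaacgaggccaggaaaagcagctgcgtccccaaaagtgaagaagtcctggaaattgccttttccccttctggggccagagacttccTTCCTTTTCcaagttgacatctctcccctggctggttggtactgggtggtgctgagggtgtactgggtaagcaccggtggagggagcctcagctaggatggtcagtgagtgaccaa
Capitals mark the IRF letters on the opposite strand, whose match begins at position -66 from the RefSeq start. It lies between the upstream and the downstream start, so it is downstream of the start of C5ar1-201 and C5ar1-203. No other motif searched matched in this window.

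**Figure D5:**
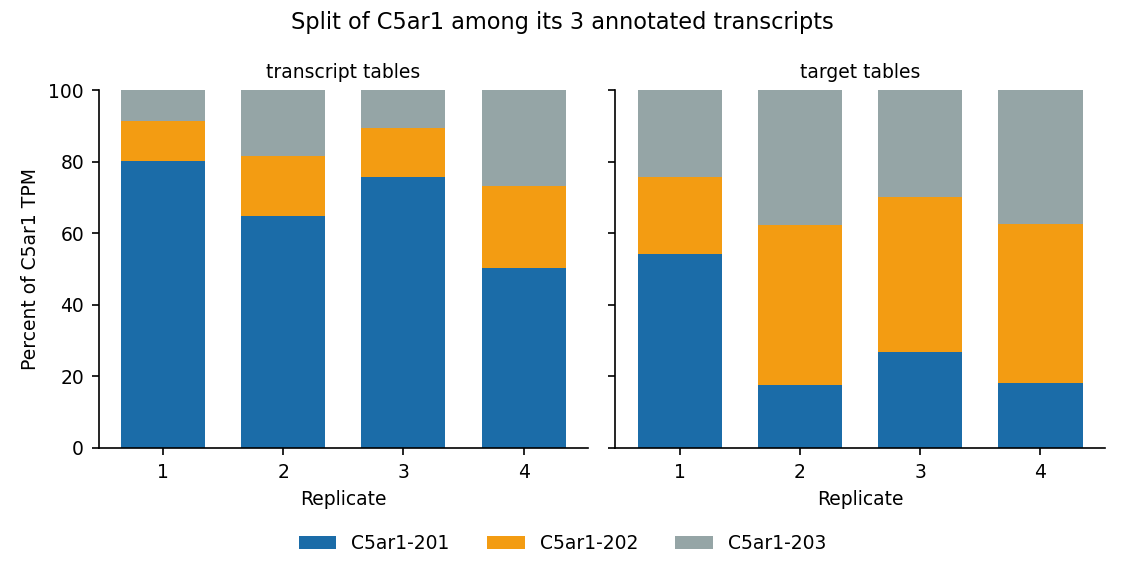
Percent of C5ar1 TPM (vertical axis) in each of its 3 annotated transcripts by replicate (horizontal axis), in the transcript tables (left) and the target tables (right). C5ar1-201 is largest in replicate 1 in both, at 80.4% and 54.4%, and its mean differs between them, at 67.8% and 29.3%.

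The profile over 4 libraries was also set beside those of 10419 genes whose counts averaged at least 100, by the largest gap in centred log2 CPM in any library. C1qb and C1qc differed from each other by at most 0.014. They also differed by less than 0.1 from 831 and 812 genes, because the profile is nearly flat, and the nearest were Sec62, Zbtb21 and Pus10 for C1qb and Ppp1r12a, Zbtb21 and Sec62 for C1qc. The nearest to C1qa were Id2, Hist1h3f and R3hdm1, at 0.03, 0.04 and 0.06. The nearest to C5ar1 were Nup210, Msr1 and Pold1, at 0.04, 0.11 and 0.11. The nearest to C3 were Hspa1a, Jund and Fam83f, at 0.06, 0.06 and 0.09. For Cfp they were Pfkfb2, Plpp6 and Gramd3, each at 0.02, and for C3ar1 Oxsr1, Rbm15 and Edem3, each at 0.01, all rounded. No gene came within 0.1 of Cfb, and the nearest were Marco, Pagr1a and Zc3h11a, at 0.28, 0.61 and 0.69. With 4 libraries these gaps are a description and no measure of shared control.

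Around the 8 genes, the receptors and C1q binders were present and most of the soluble cascade was not. Of 55 other complement genes in 8 roles, 14 had a mean of at least 1 TPM and 15 had no count in any library. Of 6 C1q receptors and binders 5 were detected: the chaperone Calr at 253 TPM, the endocytic receptor Lrp1 at 195 TPM, Cd93 at 91.1 TPM, C1qbp at 30.8 TPM and Scarf1 at 3.55 TPM. Of 6 receptors of complement fragments 4 were detected. Itgb2 and Itgam, the chains of complement receptor 3, had 118 and 34.0 TPM, Itgax had 1.84 TPM, and C5ar2, the second C5a receptor, had 1.70 TPM, well under C5ar1.

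The soluble proteases were low. Of the 6 genes of C1 proteases and their inhibitor, which act with C1q, 0 reached 1 TPM, with C1ra the highest at 0.895 TPM. C1ra, and C1rl at 0.88 TPM, still had counts in every library, from 99 and 119 in replicate 1 to 234 and 204 in replicate 4. Of C2, C4a, C4b and Cfd, 0 of 4 were detected, and of the 7 terminal pathway genes 0 of 7, with 4 at no count. The lectin pathway had 2 of 9, the scavenger receptor Colec12 at 6.20 TPM and Fcna at 3.97 TPM. The membrane regulators had 2 of 7, Cr1l, which limits C3 deposition in mice, at 24.0 TPM and Cd59a, which blocks the terminal complex, at 2.10 TPM.

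In replicate 1, 3 of the 23 other complement genes tested were higher and 0 lower, beside the 14.5% and 7.58% over all genes, with a median log2 fold change of 0.17. Itgam had 59.4 TPM in replicate 1, against 21.01, 21.2 and 34.2 TPM in the others (log2 fold change 1.02 ± 0.10, adjusted p = 0.00532 in edgeR). C1qbp had 54.4 TPM, against 22.1, 19.3 and 27.4 TPM (0.90 ± 0.12, adjusted p = 0.0101 in edgeR). Colec12 had 9.25 TPM, against 4.03, 4.61 and 6.90 TPM (0.61 ± 0.11, adjusted p = 0.0187 in edgeR). Itgb2, the partner of Itgam, had 0.13 ± 0.16 (adjusted p = 0.591 in edgeR) and was not called. In replicates 2, 3 and 4 none of the 23 was called by edgeR.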

How the data were processed

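Cytosolic RNA of 4 replicates was quantified. The authors deposited expected counts per gene, estimated counts per target, TPM and the percent of each gene in each transcript, per the file headers, on mm10 with GENCODE M21. The aligner, quantifiers and use of strand: not given in the sources used here. Features that name no gene held at most 0.407% of counts and were left out. Expected counts were rounded. Genes averaging 10 or more counts were scaled by TMM and tested with edgeR 4.0.16 (R 4.3.3), each replicate against the other 3, with calls at an adjusted p (Benjamini-Hochberg) under 0.05. A single replicate leaves no residual freedom of its own and is taken to vary like the others. Spread beyond counting used a Poisson deviance. Neighbouring levels were tested by exact sign-flip permutation on log2(TPM + 1). DESeq2 1.42.0, RLE factors, no filter, the target tables and leaving out replicates were alternatives. The fits were tested on simulated data. Sequences came from M21 and RefSeq (GRCm38.p6). Named genes are the members, up to 4 detected genes of each list, called list genes, the 3 nearest profiles, overlapping genes and macrophage markers, of which some are not reported here. Members and lists were chosen with earlier results of these data known. Other steps ran in Python 3.11.15 (scipy 1.17.1, pandas 2.3.3, numpy 2.4.6). Counts without molecular identifiers are not independent molecules, so intervals and floors cover counting error only.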

Additional observations from a re-analysis of the deposited data

Results flagged for a closer look

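Of 31 sets of 4 values examined, 2 had a library standing apart from the other 3, and chance gives about 1 in 20. C5ar1 had 287.89 TPM in replicate 1, a gap of 0.887 of the range to the next library. C3-201 held 80.91% of C3 in replicate 2 and 100% in the other libraries. With those tied at 100%, any lower value would have been flagged, so the chance rate does not apply to C3-201.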

How the results depend on the processing

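Of the alternative values, 174 kept their direction and call, moved by less than the spread or, for a count, stayed within 1.5 times. Another 18 moved further, 2 counts grew by more than 1.5 times and 0 reversed. The 174 include the transcript shares of C1qa, C1qb and C3ar1, which the annotation fixed at 100%. Mean levels in the target tables were lower, at 34.9 TPM for C1qa, 286 for C1qb, 211 for C1qc, 1.37 for C3, 83.0 for Cfp, 75.3 for C3ar1, 67.2 for C5ar1 and 0.967 for Cfb, the last under the 1 TPM used for detection. Without the 7SL genes they were 214 TPM for C1qa, 2014 for C1qb, 1472 for C1qc, 10.3 for C3, 3.85 for Cfb, 573 for Cfp, 509 for C3ar1 and 309 for C5ar1, since TPM is a share of a smaller total. In the target tables C1qb minus C1qc was 0.43 and C3 minus Cfb 0.29 in log2, and the shares of Cfb-206 and C5ar1-201 were 22.9% and 29.3%; the cause was not tested. Other complement genes detected were 22 at 0.1 TPM or 23 at 10 counts, in place of 14, as lower thresholds admit more. Without replicate 1 the mean level of C5ar1 was 73.6 TPM and of C1qa 65.0 TPM. No paired analysis was possible because the labels give 1 group. Depth limits Cfb most, with 60 to 408 counts.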
